A study of Homo sapiens with 6 samples.

Results

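The subunits and feedback inhibitors of NF-kB, 10 genes in all, were followed in HepG2 cells, an established human liver cancer cell line. They encode 3 subunits of NF-kB (NFKB1, NFKB2 and RELB), 4 proteins of the IkB family (NFKBIA, NFKBIE, NFKBIZ and BCL3) and 3 regulators of ubiquitin signalling (TNFAIP3, TNIP1 and BIRC3). They were found by name in the deposited table, where all 10 were present among 59608 genes. The names were chosen by the log2 fold changes of NF-kB target genes in earlier results of these libraries, BIRC3 among them. The comparison of VEZF1-WT with VEZF1-2A is therefore given for these 10 genes as a description, with no test. All 10 passed the filter on low counts, the lowest single count being 76.

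NF-kB is a dimer of Rel proteins that waits in the cytoplasm, bound by IkB proteins. Signals from receptors of tumor necrosis factor, interleukin 1 and microbial products activate the IkB kinase, IkB is degraded, and the dimer enters the nucleus. There it binds kB sites and transcribes, among others, the genes of its own inhibitors, which closes a negative feedback loop. In the liver the pathway is known for its part in inflammation and in the survival of hepatocytes.

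Endogenous VEZF1, a zinc finger transcription factor, had been silenced in the cells of all 6 libraries with sgRNA carried by a lentivirus, and VEZF1 was then re-expressed. In 3 libraries it was wild type (VEZF1-WT), and in 3 it was VEZF1-2A. In this form alanine replaces a pair of serines among the potential sites of the O-GlcNAc sugar that the paper lists. The paper reports that this change markedly lowered the O-GlcNAc on VEZF1. The comparison asks what the loss of these sugar sites changes in RNA. The labels name no cytokine treatment, and unsilenced cells and silenced cells without re-expression are not among these 6 libraries. Whether the libraries of a group come from separate cultures is not stated, so the spread between them may be partly technical.

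Libraries held between 28756765 and 57199396 counts. Counts are given as CPM, that is, relative to the library size after scaling with edgeR's TMM factors (0.977 to 1.01). VEZF1 itself stood at 59.3, 45.6 and 40 CPM in VEZF1-WT and at 46.2, 48.6 and 38.9 CPM in VEZF1-2A, with overlapping groups. Reads from the endogenous gene and from the re-expressed forms cannot be told apart in these counts, so they do not check the silencing. The hepatocyte markers ALB, APOB and SERPINA1 were at 2530 CPM or more in every library, while PTPRC, CD3E, KDR and COL3A1, defining markers of leukocytes, endothelium and fibroblasts, stayed at or below 0.142 CPM. The summed leukocyte markers, 113 to 172 CPM for VEZF1-WT and 117 to 185 CPM for VEZF1-2A, came almost wholly from CD68 (112 to 185 CPM), of whose exon bases 85.6% are shared with 2 other counted genes that hold 379% of its counts. In bulk RNA, fewer cells that express a gene and less RNA per cell cannot be told apart.

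The DNA before the start of these genes was searched for the motif that NF-kB is known to bind. RefSeq promoters (GRCh38.p14) were at hand for 8 of the 10 genes, with 13 start sites, and the 250 bases before each start were searched on both strands for the kB consensus, a motif of 10 bases. It was found in 7 of the 8 genes and at 9 of the 13 starts, 14 matches in all. Before the second start of NFKB2, the matches at 107 to 98 and 106 to 97 bases overlap and were counted separately. Of all 35116 RefSeq promoters 9.96% held it, and of all 27305 genes with a promoter 11.8% did. Among the other pathway genes described further on, 12 of 48 (25%) had a match. Genes with several starts offer more sequence, and the members were named for belonging to this pathway, so the shares are a description. No entry for NFKBIE or RELB was used.

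The following stretches show matches of the kB consensus in capitals with up to 10 bases on each side, 5′ to 3′ on the strand of the gene. They are shown so that the motif can be compared between genes, and a match is not in itself a bound site.

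NFKBIA, chr14:35404811-35404840, minus strand: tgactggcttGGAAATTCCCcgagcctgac

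NFKBIZ, the first start, chr3:101827757-101827786, plus strand: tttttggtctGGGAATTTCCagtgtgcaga

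TNFAIP3, the farther site, chr6:137867182-137867211, plus strand: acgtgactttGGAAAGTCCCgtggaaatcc

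TNFAIP3, the nearer site, chr6:137867194-137867223, plus strand: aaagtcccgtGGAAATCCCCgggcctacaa

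BIRC3, the farther site, chr11:102317275-102317304, plus strand: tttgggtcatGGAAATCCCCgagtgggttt

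TNIP1, the second start, chr5:151081057-151081086, minus strand: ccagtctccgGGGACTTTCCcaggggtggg

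NFKB1, the first start, chr4:102501300-102501329, plus strand: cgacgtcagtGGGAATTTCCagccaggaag

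NFKB2, the third start, chr10:102395674-102395703, plus strand: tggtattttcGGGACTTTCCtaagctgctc

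Read on the strand of the gene, the 10 letters of the match shown were the same in NFKBIZ and NFKB1. They were also the same in TNIP1 and NFKB2, and in the nearer site of TNFAIP3 and in BIRC3. Read on the opposite strand, the match of NFKBIA has the letters of NFKBIZ and NFKB1. The farther site of TNFAIP3, read in this way, has those of TNIP1 and NFKB2. In NFKBIA the match lay 81 to 72 bases before the start, and in TNFAIP3 the pair of matches lay 67 to 46 bases before it. The match of NFKB1 lay 49 to 40 bases before its first start, inside an exon of the counted gene AF213884.3. That of NFKBIZ lay in an exon of NXPE3, those of TNIP1 and NFKB2 shown here lay in exons of the genes themselves, and those of NFKBIA, TNFAIP3 and BIRC3 lay in no exon of the count table. Further matches in NFKBIZ, BIRC3 and NFKB2 are counted above and not shown. In 2 of the 8 genes, BCL3 and NFKB2, the window held a run of at least 6 G or 6 C (GGGGGG or CCCCCC), strings of the kind VEZF1 is known to bind. Of all genes with a promoter 20% held such a run, and in NFKB2 1 of its runs overlapped a kB match. BCL3 was the gene without a kB match in its window. This window (44748458 to 44748707) lies within the span of BCL3 in the count table, which begins at 44747705. The bases before that beginning were not searched.

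**Figure D1:**
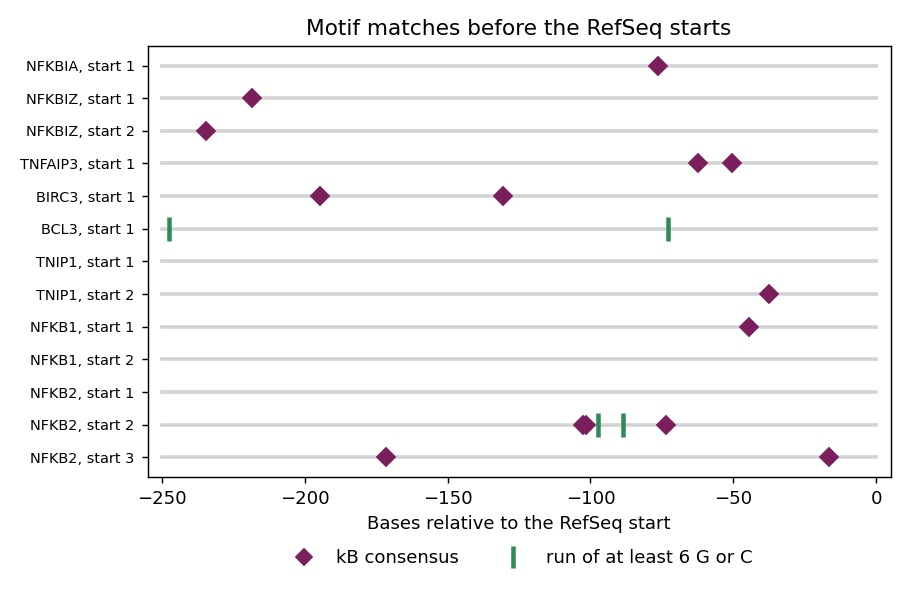
Motif matches in the 250 bases before each of the 13 RefSeq starts of 8 genes, with the position in bases relative to the start on the horizontal axis and 1 line per start. Diamonds mark the kB consensus, which 9 of the 13 lines hold, and bars mark runs of at least 6 G or C, found at 1 start of BCL3 and 1 of NFKB2.

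Per kilobase of exon, NFKBIA and TNIP1 were by far the most abundant of the 10 genes. Averaged over the 6 libraries, NFKBIA stood at 26.2 CPM per kb (22.7 to 29.8) and TNIP1 at 20.3 CPM per kb (18.7 to 22). TNFAIP3, NFKB2 and NFKB1 followed at 5.17, 5.13 and 4.88 CPM per kb, and the ranges of neighbours in this order overlapped. NFKBIZ and NFKBIE came next at 1.86 and 1.53, also with overlapping ranges, then BCL3 and RELB at 0.952 and 0.948, whose ranges overlapped as well, and NFKBIE overlapped BCL3. BIRC3 was the lowest at 0.323 CPM per kb (0.198 to 0.472), below every library of RELB. The mean level of NFKBIA was 81.1 times that of BIRC3. In all 6 libraries NFKBIA was first, TNIP1 the next and BIRC3 last.

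**Figure D2:**
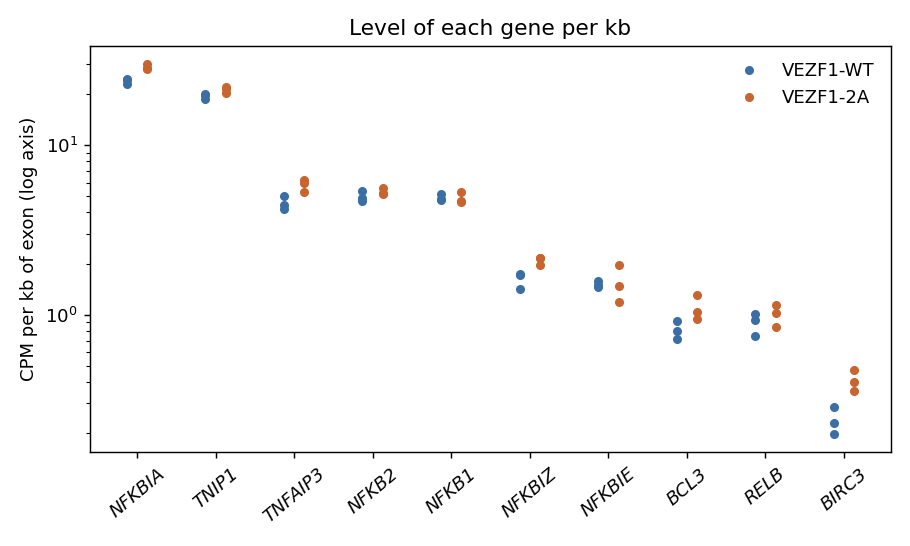
Level of each gene per kilobase of exon in every library, as CPM per kb on a log axis, with genes ordered by their mean over the 6 libraries and points coloured by group. NFKBIA (22.7 to 29.8) and TNIP1 (18.7 to 22) lie above the other 8 genes, and BIRC3 (0.198 to 0.472) lies below them.

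Between VEZF1-WT and VEZF1-2A, NFKBIA, NFKBIZ, BCL3, TNFAIP3, TNIP1 and BIRC3 were lower in every VEZF1-WT library, while NFKBIE and the subunits NFKB1, NFKB2 and RELB had overlapping groups. In 6 of the 7 inhibitors and ubiquitin regulators every VEZF1-WT library was below every VEZF1-2A library, and in 0 of the 3 subunits were the groups separate. Over the 7 the median log2 fold change of VEZF1-WT over VEZF1-2A was −0.36, and over the 3 subunits it was −0.10. The difference between these classes was not tested, and RELB (−0.17) lay farther from 0 than TNIP1 (−0.13), whose libraries varied less. For all 10 genes the median was −0.22 beside 0.00 over the 19111 genes tested, and 9 of the 10 were below 0 beside 49.9% of all genes. Separate groups with VEZF1-WT lower were seen in 3.86% of all genes tested. Since this contrast chose the genes, nothing is read from their counts against these shares.

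NFKBIA encodes IkB-alpha, the classical inhibitor that holds NF-kB dimers in the cytoplasm and is rapidly remade after activation. On chromosome 14 (35401513 to 35404749, minus strand, GRCh38) it had 58.2, 53.8 and 57.2 CPM in the VEZF1-WT replicates 1, 2 and 3, against 67.1, 65.9 and 70.6 CPM for VEZF1-2A. Every VEZF1-WT library lay below the lowest VEZF1-2A library. The means were 56.4 ± 2.31 (SD, n = 3) and 67.9 ± 2.44 CPM (SD, n = 3), a log2 fold change of −0.27 with a standard error (SE) of 0.06. NFKBIA rested on 1917 to 3224 raw counts per library, and its exons overlap those of no other counted gene.

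NFKBIE encodes IkB-epsilon, a related cytoplasmic inhibitor (chromosome 6, 44258166 to 44265788, minus strand). Its CPM were 4.1, 3.87 and 3.78 for VEZF1-WT against 3.05, 3.8 and 5.07 for VEZF1-2A. The VEZF1-2A libraries spanned the VEZF1-WT ones on both sides. The means were 3.92 ± 0.164 (SD, n = 3) and 3.97 ± 1.02 CPM (SD, n = 3), so the difference was smaller than the spread within VEZF1-2A. The log2 fold change of NFKBIE was −0.02 (SE 0.18), and it turned to 0.18 without replicate 3 of VEZF1-2A and was −0.17 without replicate 1 of that group. Without replicate 3 of VEZF1-WT it was 0.00.

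NFKBIZ and BCL3 encode nuclear IkB proteins, which act on NF-kB bound to DNA and can raise or lower transcription of single targets. NFKBIZ (chromosome 3, 101827991 to 101861022, plus strand) had 10.1, 8.34 and 10.2 CPM for VEZF1-WT against 12.8, 11.6 and 12.7 CPM for VEZF1-2A, with separate groups. NFKBIZ had a log2 fold change of −0.36 (SE 0.10). Of its 5902 exon bases, 194 (3.29%) are shared with NXPE3 on the same strand, whose counts summed to 77.4% of those of NFKBIZ.

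BCL3 (chromosome 19, 44747705 to 44760044, plus strand) had 2.22, 2.47 and 2.84 CPM for VEZF1-WT against 4.05, 2.9 and 3.2 CPM for VEZF1-2A. The groups were separate by a narrow margin, replicate 3 of VEZF1-WT lying next to replicate 2 of VEZF1-2A. Its log2 fold change was −0.42 (SE 0.18), and it was −0.27 without replicate 1 of VEZF1-2A, the highest library. The exons of BCL3 hold the whole of MIR8085 (65 bases, on the same strand), which had 7 counts in all.

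**Figure D3:**
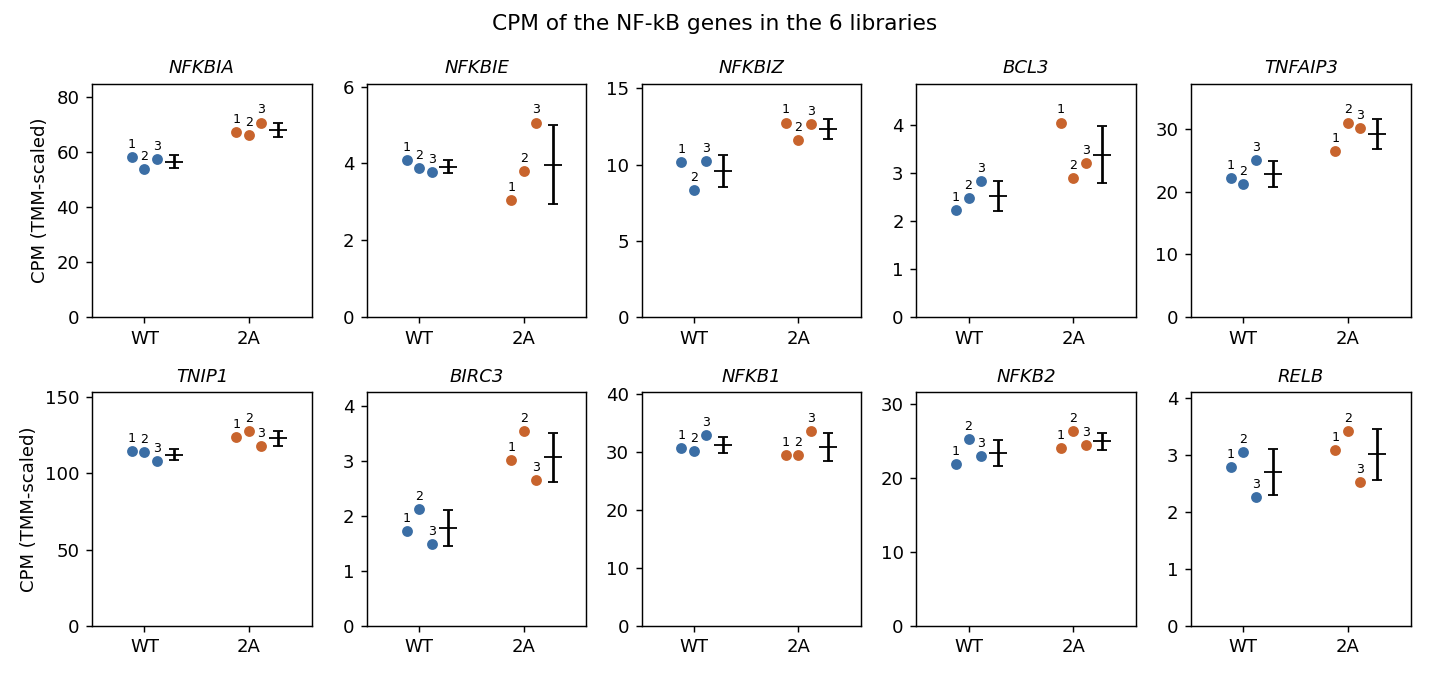
CPM of the 10 genes in each library, 1 panel per gene, with the group on the horizontal axis and CPM from 0 on the vertical axis. Numbered points are replicates, the line and bar beside them give the mean and SD of 3 libraries, and the groups are separate in NFKBIA, NFKBIZ, BCL3, TNFAIP3, TNIP1 and BIRC3.

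TNFAIP3 encodes A20, an enzyme that edits ubiquitin chains and shuts off signalling upstream of the IkB kinase. On chromosome 6 (137867214 to 137883312, plus strand), it had 22.1, 21.2 and 25.1 CPM for VEZF1-WT against 26.5, 31 and 30.1 CPM for VEZF1-2A. The highest VEZF1-WT library stayed below the lowest VEZF1-2A library. The means were 22.8 ± 2.05 (SD, n = 3) and 29.2 ± 2.39 CPM (SD, n = 3), a log2 fold change of −0.36 and an SE of 0.09. TNFAIP3 shares 95 bases (1.89% of its exons) with WAKMAR2 on the opposite strand, whose counts came to 3.74% of its own.

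TNIP1 encodes a partner that binds A20 and ubiquitin chains (chromosome 5, 151029945 to 151093577, minus strand). It had 115, 114 and 108 CPM for VEZF1-WT against 124, 128 and 118 CPM for VEZF1-2A. The groups were again separate, but the distance was small, with a log2 fold change of −0.13 (SE 0.06). TNIP1 had the highest counts of the 10 genes, from 3609 to 6096 per library, and shares no exon with another counted gene.

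BIRC3 encodes cIAP2, a ubiquitin ligase at the receptors of the tumor necrosis factor family. It had the greatest log2 fold change of the 10 genes and the lowest counts. On chromosome 11 (102317450 to 102339403, plus strand), its raw counts were 82, 76 and 84 for VEZF1-WT against 88, 142 and 88 for VEZF1-2A. Scaled, these were 1.73, 2.13 and 1.49 CPM for VEZF1-WT against 3.02, 3.55 and 2.65 CPM for VEZF1-2A. The groups did not overlap. The log2 fold change of BIRC3 was −0.80 (SE 0.19), and lay between −0.94 and −0.68 with each library left out. It shares 126 bases (1.68%) with AP000942.5, which had 1 count in all.

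The 3 subunits showed no separation of the groups. NFKB1, which gives p105 and the DNA-binding subunit p50 (chromosome 4, 102501331 to 102617302, plus strand), had 30.7, 30.2 and 32.8 CPM for VEZF1-WT against 29.5, 29.4 and 33.6 CPM for VEZF1-2A. Replicate 3 was the highest library in both groups. The log2 fold change of NFKB1 was 0.02 (SE 0.07), less than the spread between libraries, and was −0.02 without replicate 3 of VEZF1-WT.

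NFKB2, which gives p100 and p52 of the alternative pathway (chromosome 10, 102394110 to 102402524, plus strand), had 21.9, 25.3 and 23 CPM for VEZF1-WT against 24.1, 26.4 and 24.5 CPM for VEZF1-2A. The VEZF1-WT replicate 2 lay above replicates 1 and 3 of VEZF1-2A. NFKB2 had a log2 fold change of −0.10 (SE 0.08), which ran from −0.15 without replicate 2 of VEZF1-WT to −0.05 without replicate 1 of that group. RELB, the partner of p52 (chromosome 19, 45001449 to 45038198, plus strand), had 2.79, 3.06 and 2.27 CPM for VEZF1-WT against 3.09, 3.42 and 2.53 CPM for VEZF1-2A. Its groups overlapped, and its log2 fold change was −0.17 (SE 0.18), with −0.05 once replicate 3 of VEZF1-WT was left out and −0.28 once replicate 3 of VEZF1-2A was. None of the 3 subunit genes shares an exon base with another counted gene, nor do NFKBIA, NFKBIE and TNIP1.

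**Figure D4:**
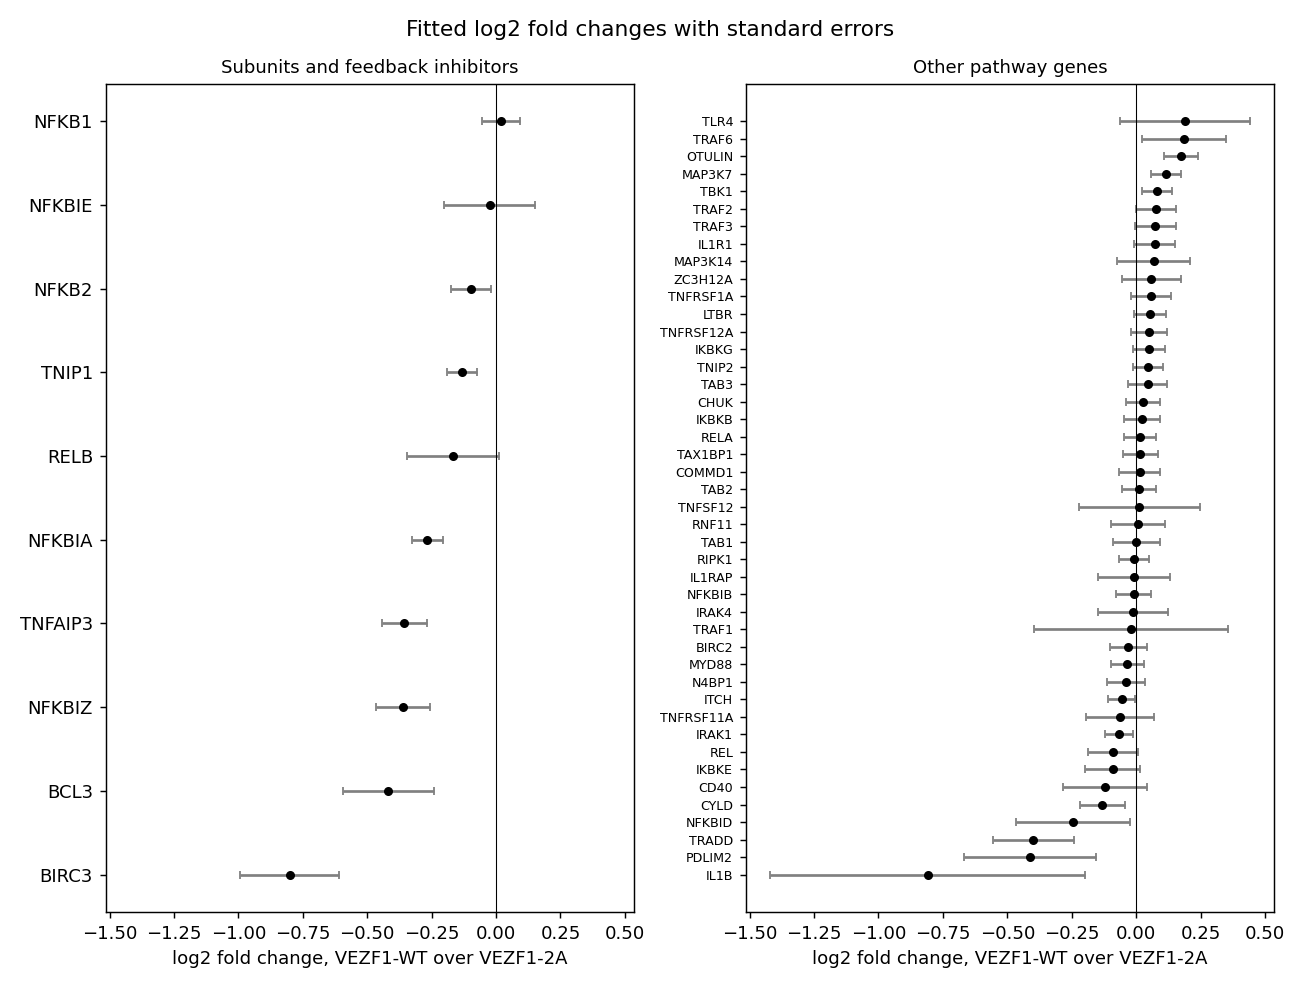
Fitted log2 fold changes of VEZF1-WT over VEZF1-2A (horizontal axis, points) and an SE ofs (bars), for the 10 genes on the left and for the 44 other pathway genes tested on the right. On the left the points run from −0.80 (BIRC3) to 0.02 (NFKB1), and on the right from −0.81 (IL1B) to 0.19 (TLR4), with a median of 0.01.

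Library by library, the 10 genes did not follow a single order. The number of genes above their own mean over the 6 libraries was 1, 2 and 1 for the VEZF1-WT replicates 1, 2 and 3, against 7, 8 and 9 for VEZF1-2A. Replicate 2 of VEZF1-2A was the highest library for 5 genes, replicate 3 for 3 and replicate 1 for 2. No VEZF1-WT library was the highest for any of the 10. As the contrast between these groups chose the genes, the counts by library are a description of the same difference.

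**Figure D5:**
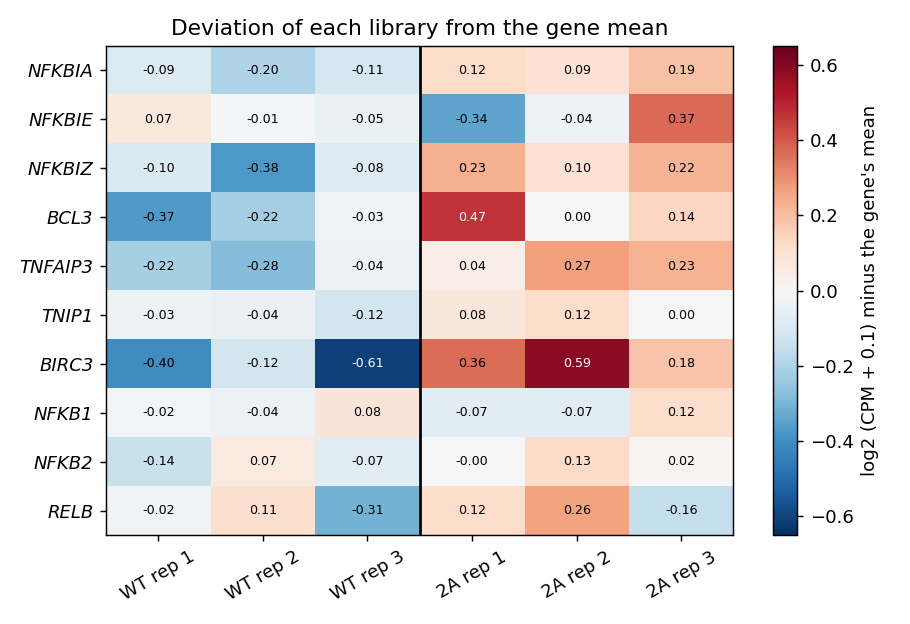
Difference of each library from the gene's mean, on the scale of log2 of CPM plus 0.1, with genes in rows, libraries in columns, and red above and blue below the mean. The line separates VEZF1-WT (left) from VEZF1-2A (right), and cells run from −0.61 (BIRC3, replicate 3 of VEZF1-WT) to 0.59 (BIRC3, replicate 2 of VEZF1-2A).

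Of the 45 pairs among the 10 genes, 34 had a Pearson's r above 0 across the 6 libraries (log2 of CPM plus 0.1), with a median of 0.30. After the group means were subtracted, 19 pairs were above 0 and the median was −0.24. NFKBIA had its highest r with NFKBIZ, 0.96, followed by TNFAIP3 with 0.88. Within the groups NFKBIA and NFKBIZ kept an r of 0.84, while NFKBIA and TNFAIP3 had 0.34 and NFKBIA and BIRC3 −0.86. The lowest pair was NFKB1 with RELB, at −0.90 across the libraries and −0.94 within groups. These values rest on 6 libraries that share their depth and scaling between genes, so they describe these libraries alone.

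Among the 8842 other genes tested with a mean of at least 10 CPM, those most like NFKBIA across the 6 libraries were GABARAPL2, PMS2, C1D, VPS29 and DPCD, with r from 0.97 to 0.98 (the exons of VPS29 and DPCD overlap other genes), and 36 genes had an r over 0.9. NFKBIZ, at 0.96, lay below the genes named here and above 0.9. Each r holds the difference between the groups, the contrast that chose NFKBIA, and r within groups was not computed for these genes. Their log2 fold changes ran from −0.35 (DPCD) to −0.05 (C1D). How many genes would pass 0.9 over 6 libraries without any link to NFKBIA was not computed.

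The rest of the pathway was counted from a list of 55 genes outside the 10, of which 44 had enough counts to be tested. Here edgeR's quasi-likelihood test gave 1 gene higher and 1 gene lower in VEZF1-WT at a raw p (before adjustment) below 0.05, beside 2.13% of all genes tested. After Benjamini-Hochberg adjustment 0 of the 44 passed 0.05, as did 0% of all 19111 genes tested. Over all genes 408 had a raw p below 0.05, and DESeq2 gave 3 genes with an adjusted p under 0.05. The groups were separate in 7 of the 44 genes, 3 lower and 4 higher in VEZF1-WT. This is a larger share than the 7.36% of all genes, and the difference was not tested. The median log2 fold change of the 44 was 0.01.

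Most ligands had few or no counts. TNF, the main cytokine of the pathway, had 0 counts in 5 of the 6 libraries and 4 counts in replicate 3 of VEZF1-2A. IL1B, the interleukin 1 beta gene, had 3, 7 and 18 counts for VEZF1-WT against 4, 14 and 18 for VEZF1-2A. TNFSF12, the gene of the cytokine TWEAK, had 24 to 60 counts per library and 0.532 CPM per kb, beside 0.323 for BIRC3, and its log2 fold change was 0.01 (SE 0.23). It shares 32.7% of its exon bases with other counted genes. Of the 9 ligand genes 2, IL1B and TNFSF12, could be tested, and neither had a raw p below 0.05.

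Of the 20 receptors and adaptors 17 were tested. TRADD, the adaptor that joins the tumor necrosis factor receptor to its kinases (chromosome 16, 67154185 to 67159909), had 2.79, 3.73 and 2.71 CPM for VEZF1-WT against 3.98, 4.07 and 4.04 CPM for VEZF1-2A. Every VEZF1-WT library of TRADD was below the VEZF1-2A ones. The log2 fold change was −0.40 (SE 0.16), and edgeR's quasi-likelihood test gave a raw p of 0.0283, or 0.9996 once adjusted. BIRC2, the neighbour and close paralog of BIRC3, had 27.9 ± 1.47 CPM (SD, n = 3) for VEZF1-WT against 28.5 ± 1.63 CPM (SD, n = 3) for VEZF1-2A. Its log2 fold change was −0.03, beside −0.80 for BIRC3, and reads that fit either paralog may have been assigned to one or left out.

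The 10 genes of the kinase complexes that carry the signal to IkB, 6 kinases and the 4 scaffold or adaptor genes IKBKG, TAB1, TAB2 and TAB3, had log2 fold changes between −0.09 and 0.12, and 0 of them had a raw p below 0.05. The catalytic subunits of the IkB kinase, CHUK and IKBKB, had log2 fold changes of 0.03 and 0.02 (SE 0.07 for each). IKBKG, its scaffold, had 0.05, but 342 of its exon bases (9.69%) are shared with another counted gene of about equal counts. MAP3K7, the kinase TAK1, stood farthest from 0 among these 10 (0.12). Of the 10 genes 9 were above 0, beside 9573 of the 19111 genes tested. The groups were separate in 2 of the 10, with VEZF1-WT higher, beside 7.36% of all genes with separate groups in either direction. These counts were not tested against those shares.

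Of the 4 remaining subunit and IkB genes, 0 had a raw p below 0.05. RELA, the p65 subunit that most often pairs with p50, had 63.1 ± 3.35 CPM (SD, n = 3) for VEZF1-WT against 62.4 ± 1.8 CPM (SD, n = 3) for VEZF1-2A, a log2 fold change of 0.02. REL had a log2 fold change of −0.09, and 43.3% of its exon bases are shared with another counted gene. NFKBIB, the gene of IkB-beta and the third classical inhibitor, had 22.6 ± 0.467 (SD, n = 3) and 22.7 ± 1.13 CPM (SD, n = 3), a log2 fold change of −0.01 (SE 0.07). Its close relatives NFKBIA and NFKBIE were at −0.27 and −0.02. NFKBID, the gene of another nuclear IkB protein, had 37 to 71 counts per library, overlapping groups and a log2 fold change of −0.24 (SE 0.22).

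Among the 12 other negative regulators, 11 were tested and OTULIN had a raw p below 0.05. OTULIN removes linear ubiquitin chains (chromosome 5, 14664664 to 14699850). It had 34.5, 36 and 32.6 CPM for VEZF1-WT against 31, 29.7 and 30.6 CPM for VEZF1-2A, higher in VEZF1-WT in all 3 libraries. The log2 fold change was 0.17 (SE 0.06), and edgeR's quasi-likelihood test gave a raw p of 0.0214, or 0.9996 once adjusted. TRADD kept a raw p below 0.05 in 3 of the 6 fits with a library left out and lost it without replicate 1 or 3 of VEZF1-WT or replicate 2 of VEZF1-2A. OTULIN also kept it in 3 of 6, and lost it without replicate 1 or 2 of VEZF1-WT or replicate 2 of VEZF1-2A.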

How the data were processed

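RNA of 6 HepG2 libraries (3 VEZF1-WT, 3 VEZF1-2A, groups from the sample titles) was analysed. The authors deposited raw counts per gene, from mRNA libraries (SMARTER kit) on GRCh38 per the labels. The aligner, counter, annotation and strand setting are not given in the sources used here, so reads in exons shared between genes may be counted for either gene, for both or for neither. Of its lines 5 (a broken ANK2 entry) were left out, which leaves 59608 genes. Between 65.7% and 67.5% of counts from 11 to 100 were even.

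Genes were filtered with filterByExpr (minimum count 10, total 15), scaled by TMM and fitted with edgeR 4.0.16 (glmQLFit, glmQLFTest, group alone, two-sided, Benjamini-Hochberg over 19111 genes) in R 4.3.3. CPM per kb used the table's exon length column. Exon overlap was computed from its Chr, Start and End columns. RefSeq promoters (GRCh38.p14) were searched for motifs. Figures were drawn with matplotlib 3.10.9.

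The members and lists were chosen with earlier results of these data known. Genes named by rule are the 10 members, the genes sharing their exons, 7 core pathway genes, pathway genes with a raw p below 0.05, and the 5 genes most like NFKBIA. Genes named beyond these (VEZF1, cell type markers, TNF, IL1B, TNFSF12, NFKBID, TAB1, TAB2, TAB3, MAP3K7, TLR4) were added after their values were seen. Alternatives were other scalings, no filter, DESeq2 1.42.0, a replicate block, each library left out, halved counts, and overlapping genes left out.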

Additional observations from a re-analysis of the deposited data

How the results depend on the processing

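The log2 fold changes of the 10 genes were recomputed under 13 alternatives, which gave 126 values. All 126 lay within 1 SD of the values in the text, taking the larger group SD over libraries. Leaving out a library can hardly move a value beyond this SD, so for those fits the bound is no check. NFKBIE, for example, ran from −0.17 to 0.18 with each library left out. Of the 126 values 114 were below 0, the exceptions being values of NFKB1 and NFKBIE. The median of the 10 genes lay between −0.26 and −0.19 with each library left out. It was −0.11 when genes with overlapping exons were left out, by construction, since this removes NFKBIZ, TNFAIP3, BIRC3 and BCL3 and leaves 6 genes; 154 of all 8547 genes left then had a raw p below 0.05. Over all genes, the 408 with a raw p below 0.05 became 896 without the filter on low counts and 219 with DESeq2, and from 292 to 973 with each library left out. The count with an adjusted p under 0.05 went from 0 to 16 without the filter and to 3 with DESeq2, and was 0 with any library left out; the cause was not tested. The count of other pathway genes with a raw p below 0.05 ran from 0 to 3 with each library left out.

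With the replicate number as a block, 825 genes had a raw p below 0.05 and 6 an adjusted p under 0.05, the median of the 10 genes was −0.21, and 2 other pathway genes passed the unadjusted threshold. The labels do not say that equal numbers belong together. Same-numbered libraries had correlations of their deviations from the group means of 0.08, 0.15 and 0.38, and 4 of the 6 libraries correlated best with their own number. Depth limits BIRC3, BCL3, NFKBIE and RELB most, with fewer than 250 counts in every library.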
